A study of Myotis pilosus with 4 samples.

Results

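miR-219 is made from 1 hairpin in the study's list of mature miRNAs of the bat Myotis ricketti, and its 2 arms, miR-219-3p and miR-219-5p, are 2 of the 119 conserved entries in that list, which also holds 77 bat-specific ones. Both arms were chosen by name, and their mature sequences were looked up among the sequenced tags. Both were found, as the list itself was made from these libraries. A tag is a distinct small RNA sequence of 18 to 30 nt with the number of reads in which it was seen. Each of the 4 libraries was 1 pool of equal amounts of RNA from 3 adult wild bats, and the brain and WAT pools of a state came from the same bats. HB was whole brain and HA intra-abdominal white adipose tissue (WAT) of hibernating bats, caught in deep torpor in early spring. AB and AA were the same tissues of active bats, a state that the labels call aroused, caught in autumn. Season and state of the bats cannot be told apart. Each condition was 1 library without replicates, no test between conditions was made, and each value is given with a 95% interval that covers counting error only. The brain libraries held 12159756 (HB) and 10007650 (AB) clean reads and the WAT libraries 11542470 (HA) and 11437337 (AA).

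A miRNA hairpin is cut first by Drosha in the nucleus and then by Dicer in the cytoplasm, which leaves a short duplex of the 5p and the 3p arm. An Argonaute protein keeps 1 strand, and bases 2 to 8 of that strand, the seed, choose its targets. miR-219 is known in other mammals as a miRNA of oligodendrocytes, the myelinating cells of the brain, where it rises as precursor cells leave the cell cycle and promotes their differentiation by repressing factors that keep them immature. Other mammals carry 2 miR-219 genes that give the same 5p arm and different 3p arms, and the strand opposite to a miR-219 gene is known to give miRNAs of its own, named miR-219b.

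The listed sequences are shown because every count below rests on them, 5′ to 3′ and with the seed in capitals.
miR-219-3p: aGAATTGTggctggacatct
miR-219-5p: tGATTGTCcaaacgcaattc
Both are 20 nt long, with a GC content of 45% in the 3p arm and 40% in the 5p arm. The 2 seeds differ, and 0 of the other listed miRNAs had either of them. In the predicted duplex of the arms, 16 bases paired, of which 1 was a G-U pair. The paired bases are in capitals in the following lines.
5p arm in the duplex: tGAtTGTCCAaaCGCAATTC
3p arm in the duplex: aGAATTGTGgcTGGACATCt
Each arm left its first base unpaired, and the 3p arm also its last. Of the 7 seed bases, 7 were paired in the 3p arm and 6 in the 5p arm.

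Both arms were abundant in brain and close to the lower limit of counting in WAT. Tags identical to miR-219-3p numbered 39847 in HB and 49302 in AB, against 12 in HA and 18 in AA. Both brain libraries were far above both WAT libraries. In reads per 1000000 clean reads (RPM), the level of the 3p arm was 4926 in AB (95% interval 4883 to 4970) and 3277 in HB (3245 to 3309), but 1.57 in AA (0.933 to 2.49) and 1.04 in HA (0.537 to 1.82). The order from the highest was AB, HB, AA and HA, and the last 2 did not differ beyond their intervals. Among tags that begin with the first 18 nt, HA stood above AA, at 3.64 RPM (2.62 to 4.92) and 2.89 RPM (1.99 to 4.05), again with overlapping intervals. miR-219-3p ranked 9 among all listed miRNAs in HB and 10 in AB, against 121 in HA and 122 in AA.

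Tags identical to miR-219-5p numbered 1663 in HB and 894 in AB, against 0 in HA and 6 in AA. The level of the 5p arm was 137 RPM in HB (130 to 143), 89.3 RPM in AB (83.6 to 95.4) and 0.525 RPM in AA (0.193 to 1.14). The 0 reads in HA had an upper limit of 0.320 RPM by the Poisson interval, and the floor of 3 reads used in ratios is 0.26 RPM there. HB was thus the highest library for the 5p arm, whereas AB was the highest for the 3p arm. The 5p arm ranked 28 in HB and 38 in AB.

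**Figure D1:**
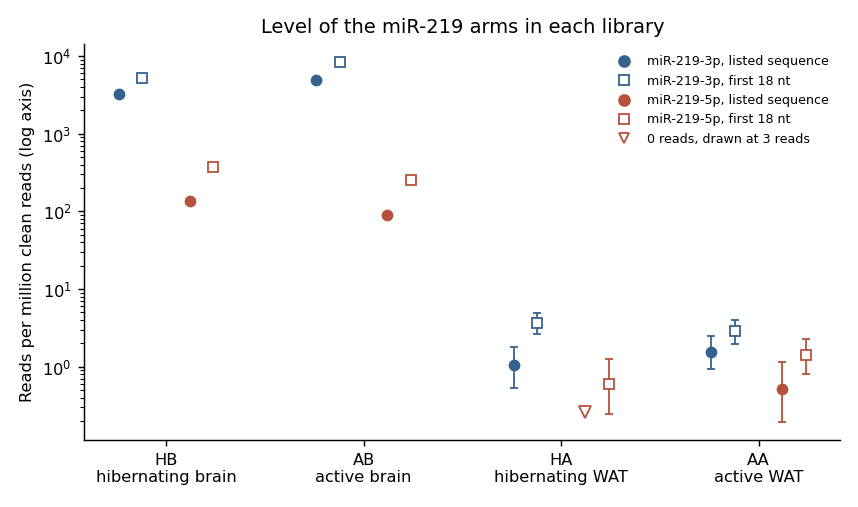
The level of both miR-219 arms (RPM, log axis) in the 4 libraries, counted by the listed sequence (filled) or by all tags that begin with its first 18 nt (open), with 95% Poisson intervals. Both arms lie at 89.3 RPM or more in brain and at 3.64 RPM or less in WAT, and the 5p arm with 0 reads in HA is drawn at the level of 3 reads.

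The labelled tissues were set beside lists of tissue miRNAs. These lists were chosen with earlier results of these data known, so they give no independent check of the labels. The 10 neuronal entries (the arms of miR-124, miR-129 and miR-153, the 5p arms of miR-218a and miR-218b, and miR-9-3p) summed to 40476 RPM in HB and 53047 RPM in AB, against 139 RPM in HA and 224 RPM in AA. All 10 were higher in brain by a log2 ratio of 1 or more in both states. Among all miRNAs with 10 or more reads in the pair, the same held for 40.9% of 159 in HB over HA. In AB over AA it held for 38.4% of 159. At 0 reads in both HA and AA were 3 of the 10, miR-124-5p, miR-153-3p and miR-153-5p. These had only 92 to 211 reads in each brain library. The share of all listed miRNAs at 0 reads in WAT was not computed. The 3 adipose entries (miR-378-3p, miR-193-3p and miR-365-3p) summed to 122 RPM in HB and 463 RPM in AB, against 1058 RPM in HA and 15853 RPM in AA. These sums are nearly all miR-378-3p, which gave 11775 of the 12211 adipose reads of HA and 180178 of the 181317 of AA. The WAT libraries also held miRNAs of other cells. The 3 muscle entries, led by miR-1-3p, summed to 17409 RPM in HA and 18253 RPM in AA, against 1948 RPM in HB and 1605 RPM in AB. The 3 entries of stroma and vessels summed to 13586 RPM in HA and 40201 RPM in AA, and the 4 blood cell entries to 253 and 268 RPM. Their part in the miR-219 reads of WAT was not tested.

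Between tissues, the ratio of 2 libraries was scaled by TMM, the trimmed mean of the log ratios over the listed miRNAs, and a log2 ratio of 1 or more was taken as a difference in size. miR-219-3p was 2952-fold higher in brain than in WAT of the hibernating bats (HB over HA, log2 ratio 11.53, 95% counting interval 10.72 to 12.48). In the active bats it was 2936-fold higher (AB over AA, log2 ratio 11.52, 10.86 to 12.27). By the first 18 nt the log2 ratio was lower in the hibernating bats, at 10.40 (9.96 to 10.87), and 11.36 (10.87 to 11.90) in the active bats, so the states were not close by that rule. By the listed sequence the ratio was the highest of the 159 miRNAs with 10 or more reads in the pair in both states. miR-219-5p was at least 493-fold higher in HB than in HA with its 0 reads there set to the floor of 3 reads, and the exact counting interval began lower, at 400-fold. It was 160-fold higher in AB than in AA (log2 ratio 7.32, 6.19 to 8.77). It ranked 5 among the 159 miRNAs of HB and HA and 7 among those of AB and AA. Of the 159 miRNAs in each comparison, 40.9% were higher in HB than in HA by a log2 ratio of 1 or more, with a median of 0.20, and 38.4% were higher in AB than in AA, with a median of -0.01. Both arms were therefore among the 65 and the 61 miRNAs that passed in these comparisons, which share no library. In whole tissue, fewer cells of a type and fewer molecules per cell cannot be told apart.

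**Figure D2:**
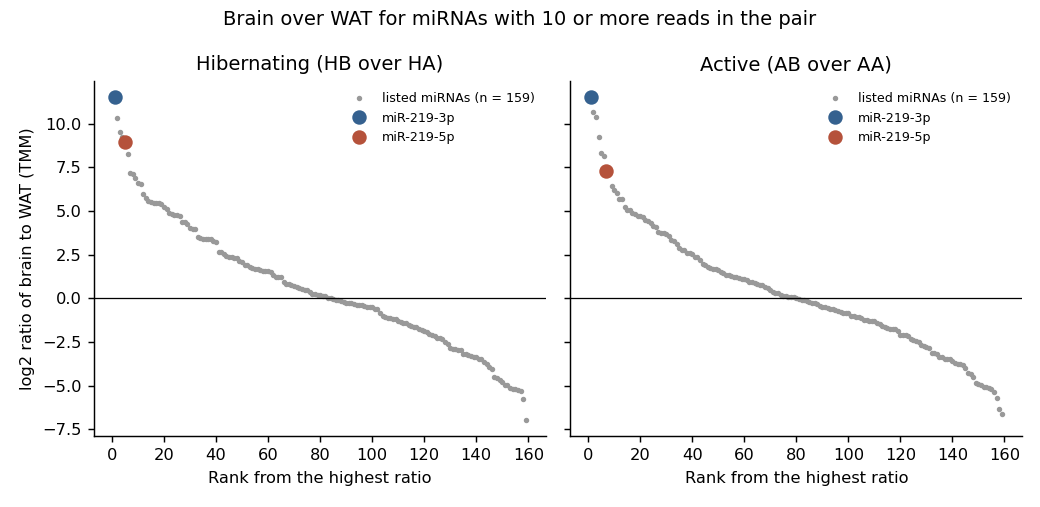
The log2 ratio of brain to WAT (TMM) against rank for the listed miRNAs with 10 or more reads in the pair, for hibernating bats (left) and active bats (right), each grey point being 1 miRNA. miR-219-3p has the highest ratio in both panels and miR-219-5p ranks 5 and 7, where the left value is a lower bound.

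The level in WAT was 0.0317% of that in brain for miR-219-3p in the hibernating bats and 0.0319% in the active bats. For miR-124a-3p, the most abundant neuronal miRNA, the same shares were 0.0725% and 0.0568%. By the first 18 nt they were 0.0691% and 0.0347% for miR-219-3p, so the states were then no longer close, and 0.0841% and 0.0625% for miR-124a-3p. The first 18 nt of miR-124a-3p are also those of miR-124b-3p, so the last values cover both. All these shares are by clean reads. Scaled by the reads of the listed miRNAs, the log2 ratio of brain to WAT of miR-219-3p was 10.95 (10.15 to 11.91) in the hibernating bats. In the active bats it was 11.41 (10.75 to 12.17), so the states were less close by that scaling, with overlapping intervals. For miR-219-5p, with 0 reads in HA, the share was 0.587% in the active bats. By the first 18 nt it was 0.164% in the hibernating and 0.554% in the active bats. Over the 10 neuronal entries together the shares were 0.344% and 0.423%, but miR-129-3p alone gave 1104 of the 1605 neuronal reads of HA and 2060 of the 2567 of AA, at 3.42% and 12.6% of its level in brain. Without it they were 0.115% and 0.0859%. By the distance between log2(RPM + 1) profiles, each centred on its own mean over the 4 libraries, the nearest of 88 conserved miRNAs to miR-219-3p was miR-124a-3p at 0.34. miR-124b-3p followed at 1.84, miR-9-3p at 3.63, miR-383-5p at 4.34 and miR-219-5p at 4.37. The nearest to miR-219-5p was miR-383-5p at 0.36, which had 1690 (HB) and 894 (AB) reads in brain and 2 (HA) and 3 (AA) in WAT. After it came miR-154-3p at 1.01, miR-9-3p at 1.18, miR-135-3p at 1.41 and miR-3958-3p at 1.51. With 0.1 in place of 1 added to the RPM, miR-9-3p was the nearest to miR-219-5p at 1.28, ahead of miR-383-5p at 1.61. By the same change miR-124a-3p remained the nearest to miR-219-3p but lay further off, at 0.985.

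Between states, the arms went in opposite directions in brain, and neither reached a log2 ratio of 1 in size with the TMM scaling over all listed miRNAs, whereas the 5p arm did, at 1.04, with TMM over the conserved ones. HB over AB gave a log2 ratio of -0.30 for miR-219-3p (-0.32 to -0.28) and of 0.90 for miR-219-5p (0.79 to 1.02), a 1.87-fold higher level in HB. Of the 153 miRNAs that reached 10 reads over HB and AB, 40.5% differed by 1 or more in size, 35 of them higher and 27 lower in HB, and the median was 0.01. Ordered from the highest ratio, the 5p arm ranked 42 and the 3p arm 95. The neuronal entries gave 2 of 10 higher in HB by 1 or more, 0 lower and a median of 0.34.

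In WAT the reads were too few for a comparison of states. The log2 ratio of HA to AA was -0.25 for miR-219-3p, and its interval of -1.44 to 0.88 left a difference undetectable at such counts. Its sign was not stable either, with 0.59, 0.52 and 0.55 by the first 18 nt, by bases 2 to 17 and by tags of 2 or more reads, and 0.53 with TMM over the conserved miRNAs. With the scaling of the listed sequences kept, an alternative chosen after the data were seen, the ratio by bases 2 to 17 was 0.72 (0.03 to 1.42). For the 5p arm, which had no read in HA and 6 reads in AA, it was at most -0.66 with HA set to 3 reads, and the counting interval reached 0.10. The bound was 0.11 with TMM over the conserved miRNAs and -1.01 by clean reads, where the interval reached -0.25. With reads in both libraries, the ratio was -0.95 by the first 18 nt, -1.31 by bases 2 to 17 and -1.14 by tags of 2 or more reads, and each interval reached above 0. Of the 142 miRNAs that reached 10 reads over HA and AA, 49.3% differed by 1 or more in size.

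The balance of the arms needs no scaling between libraries. The 3p arm made up 96.0% of the reads of both arms in HB (exact interval 95.8 to 96.2%) and 98.2% in AB (98.1 to 98.3%). There were 24.0 reads of the 3p arm for each read of the 5p arm in HB and 55.1 in AB. The 3p arm was the main arm in both brain libraries, and the 5p arm held a larger share in HB. The difference, HB minus AB, of log2 (3p over 5p) was -1.20 (-1.32 to -1.08). How well each sequence is ligated and amplified was not measured, so the ratios are compared between libraries and not read as molecules per cell.

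In WAT, all 12 reads in HA were of the 3p arm, which allows a 3p share down to 73.5%. In AA the 3p arm had 18 of 24 reads, or 75.0% (53.3 to 90.2%), below the interval of AB. Counting all tags that begin with the first 18 nt of each arm gave 42 reads of the 3p and 7 of the 5p arm in HA, and 33 and 16 in AA. The 3p share was then 85.7% in HA (72.8 to 94.1%) and 67.3% in AA (52.5 to 80.1%), against 93.4% in HB and 97.1% in AB. The interval of HA overlapped that of HB, and the interval of AA lay below that of AB. Among 5p reads that continue beyond the listed sequence with TT or TC, those of WAT had mostly TC (85.7% of 7 reads) and those of brain TT (96.4%). From which miR-219 gene the 5p reads of WAT came was not tested. The 3p arm of a further gene would not be counted here.

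Of the listed hairpins with 10 or more reads of each arm in each brain library, 14 could be set beside miR-219, itself included. Among them, 5 of 14 (35.7%) had a difference of 1 or more in size, and miR-219 ranked 4 by size. The median was 0.15, and 6 of the 14 had a lower 3p share in HB. The range was from -3.97 for miR-222, with 1357 reads of the 3p and 98 of the 5p arm in HB against 5218 and 24 in AB, to 1.91 for miR-129. With the fewest reads in any arm and library at 894, miR-219 had the narrowest counting interval of the 14.

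**Figure D3:**
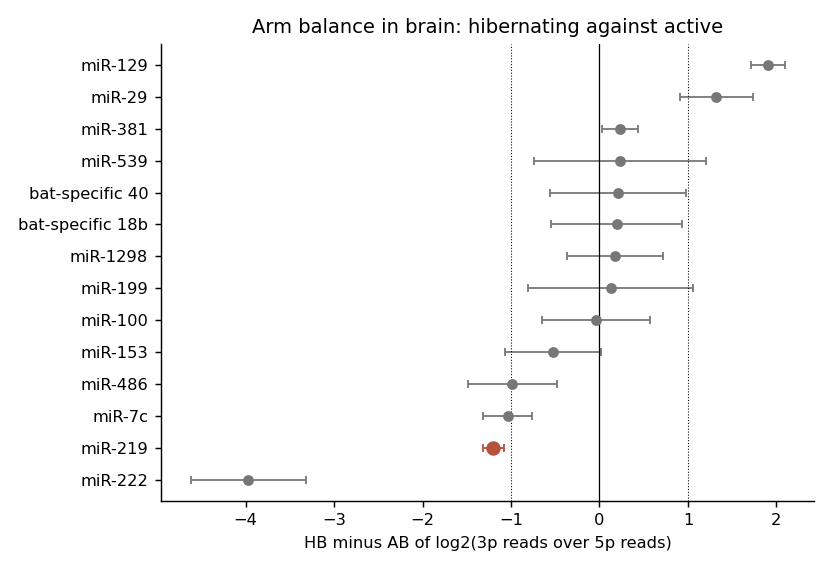
The difference between HB and AB in log2 of 3p reads over 5p reads for the 14 listed hairpins with 10 or more reads of each arm in each brain library, with 95% counting intervals and dotted lines at a size of 1. miR-219 lies at -1.20, between miR-222 at -3.97 and miR-129 at 1.91.

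The listed sequence was the most abundant tag of each arm in HB, AB and AA, but not in HA. Of several length variants the authors kept the most frequent one, so its lead in the deep brain libraries was largely set in advance. Among all tags that begin with the first 18 nt, the 3p arm had 64040 reads over 172 distinct tags in HB and 83303 reads over 223 tags in AB. The 5p arm had 4493 reads over 24 tags in HB and 2529 reads over 31 tags in AB. The listed sequence itself held 62.2% of the 3p reads in HB and 59.2% in AB, and 37.0% and 35.3% of the 5p reads. Among tags with bases 2 to 17 intact, the 5 commonest of each arm show where they end, with the bases beyond the listed sequence in capitals. Tags changed within those bases cannot be among them and follow further on.
3p, listed: agaattgtggctggacatct
3p, 22 nt: agaattgtggctggacatctGT
3p, 21 nt: agaattgtggctggacatctG
3p, 19 nt: agaattgtggctggacatc
3p, 22 nt ending in A: agaattgtggctggacatctGA
5p, listed: tgattgtccaaacgcaattc
5p, 19 nt: tgattgtccaaacgcaatt
5p, 18 nt: tgattgtccaaacgcaat
5p, 21 nt: tgattgtccaaacgcaattcT
5p, 22 nt: tgattgtccaaacgcaattcTT
The 22 nt form of the 3p arm had 8359 (HB) and 15452 (AB) reads in brain, and 16 (HA) and 9 (AA) in WAT. It was second to the listed sequence in brain and had more reads than it in HA, where the listed 3p sequence had 12. The 21 nt form had 5047 (HB) and 7682 (AB) reads in brain, and 0 (HA) and 4 (AA) in WAT. The 19 nt form was seen 4183 times in HB and 3925 times in AB.

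The 2 arms differed in their lengths. The mean length of the 3p tags was 20.41 nt (HB) and 20.56 nt (AB) in brain, and 21.31 nt (HA) and 20.61 nt (AA) in WAT. That of the 5p tags was 19.59 nt in HB and 19.64 nt in AB. Tags longer than the listed sequence made up 28.2% of the 3p reads in HB (27.8 to 28.5%) and 34.2% in AB (33.8 to 34.5%), whereas tags shorter than it made up 7.63% and 5.31%. In the 5p arm the shorter tags were the larger group, with 46.2% in HB (44.7 to 47.7%) and 45.5% in AB (43.5 to 47.4%), and the longer tags made up 16.3% and 18.7%. Tags under 18 nt are not in the tables, so the shorter side is cut off for both arms. In WAT, 64.3% of the 42 reads of the 3p arm in HA were longer than the listed sequence (48.0 to 78.4%) and 39.4% of the 33 reads in AA (22.9 to 57.9%).

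The ratio between states varied with the length of the 3p tags. With the same TMM scaling for every length, the log2 ratio of HB over AB was 0.45 at 18 nt (0.24 to 0.66), 0.13 at 19 nt, -0.29 at 20 nt, -0.44 at 21 nt, -0.72 at 22 nt, -0.94 at 23 nt and -1.23 at 24 nt. The ratio thus fell at each step from 18 to 24 nt, and the 25 nt tags, with 44 reads in HB and 21 in AB, stood apart at 1.08. In the 5p arm the ratio was 0.59 at 18 nt, 1.03 at 19 nt, 0.91 at 20 nt, 0.88 at 21 nt and 0.48 at 22 nt. The 23 nt tags of the 5p arm, with 44 reads in HB and 71 in AB, were at -0.68 (-1.26 to -0.12). Every 5p length from 18 to 22 nt was therefore higher in HB, and of the 3p lengths with 20 or more reads, 18, 19 and 25 nt were. Another scaling moves all lengths alike. Clean reads shift them by -0.29, which would take the 19 nt 3p tags below 0 and leave the other signs and the fall from 18 to 24 nt as they are.

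**Figure D4:**
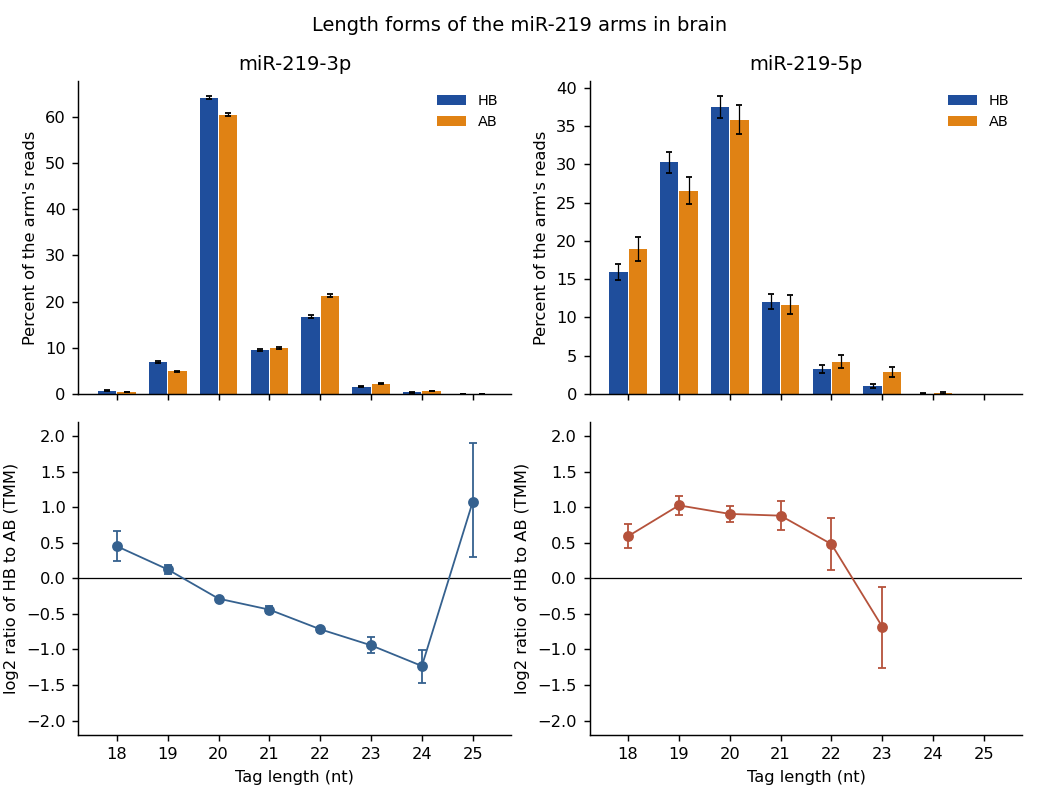
Top, the percent of each arm's reads at each tag length (nt) in HB and AB, and bottom, the log2 ratio of HB to AB (TMM) at each length with 20 or more reads, with 95% counting intervals, for miR-219-3p (left) and miR-219-5p (right). The 3p ratio falls from 0.45 at 18 nt to -1.23 at 24 nt, and the 5p ratio is above 0 from 18 to 22 nt.

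A shift to shorter tags in HB was also seen over other miRNAs. Among 72 other conserved miRNAs with 100 or more reads in both brain libraries, where names with the same first 18 nt were counted once, the mean tag length was shorter in HB for 48, and the median of HB minus AB was -0.06 nt. miR-219-3p was at -0.15 nt, with 22 of the 72 below it, and miR-219-5p at -0.05 nt, with 38 below it. Both lay between the quartiles of these miRNAs, -0.19 and 0.04 nt. The share of tags longer than the listed sequence was lower in HB by 5.98 percentage points for miR-219-3p and by 2.45 for miR-219-5p, against a median fall of 0.51. In WAT the direction was the opposite, with 12 of 65 other miRNAs shorter in HA and a median of HA minus AA of 0.15 nt.

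The base that follows the listed sequence differed between the brain libraries in the 3p arm. Of the 3p tags with exactly 1 further base, G was the commonest, at 87.6% of 5759 reads in HB (86.8 to 88.5%) and 95.1% of 8081 reads in AB (94.6 to 95.5%). A made up 8.93% in HB (8.20 to 9.69%) and 2.81% in AB (2.46 to 3.19%), or 514 and 227 reads. Among the 3p tags that extend the whole listed sequence, 18.7% ended in A in HB (18.1 to 19.3%) and 12.7% in AB (12.3 to 13.1%). The 22 nt tag that ends in A had 1416 (HB) and 1391 (AB) reads in brain and 4 (HA) and 0 (AA) in WAT, and no genome was used here to say whether that base is encoded. In the 5p arm the further base was T in 98.9% of 539 reads in HB and 99.3% of 291 reads in AB.

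The 5′ end, which sets the seed, was compared among tags that contain bases 2 to 17. Tags that start 2 or more bases later, or that are changed in those bases, cannot be among them, which holds part of the spread of starts out of these shares. Of the 3p reads counted so, 99.9% started at the listed base in both HB and AB. In the 5p arm it was 97.4% of 4631 reads in HB (96.9 to 97.9%) and 96.3% of 2639 reads in AB (95.5 to 97.0%). Most of the remainder started 1 base later, with 2.27% in HB and 3.22% in AB. Within this limit the first base varied more in the 5p arm than in the 3p arm.

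A further 3 tags with 1 changed base stood out in the interior of the arms, and they are shown with the changed base in capitals. Positions are counted from 1 at the 5′ end of the listed sequence, and the listed base is given first.
3p, A17C: agaattgtggctggacCtct
3p, A15G: agaattgtggctggGcatct
5p, C15T: tgattgtccaaacgTaattc
The A17C tag was read 2984 times in HB and 2589 times in AB, against 3 in HA and 2 in AA. The A15G tag was read 2162 times in HB and 2913 times in AB, against 0 in HA and 3 in AA. The next interior change of the 3p arm, A15C, had 269 and 177 reads in the brain libraries. The C15T tag of the 5p arm was read 182 times in HB and 84 times in AB.

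In the 3p arm the same changes recurred at every length from 18 to 24 nt. Over tags of all lengths, A17C was present in 6.51% of the reads in HB (6.33 to 6.70%) and 4.61% in AB (4.47 to 4.75%). A15G was present in 4.89% in HB (4.73 to 5.05%) and 5.29% in AB (5.14 to 5.44%). At 22 nt the shares were 5.64% in HB and 3.68% in AB for A17C, and 4.12% and 4.88% for A15G. Over all lengths A17C was thus more frequent in HB and A15G in AB. At 18 and 23 nt the order was the opposite for both changes, with 26 and 41 A17C reads and 14 and 33 A15G reads in HB and overlapping intervals. In WAT, A17C had 3 reads beside 43 unchanged ones in HA and 2 beside 33 in AA, shares of 6.52% and 5.71% whose intervals span those of brain. The 5p change behaved otherwise. C15T was present in 8.40% of the 19 nt and 9.94% of the 20 nt reads in HB and in 12.7% and 8.48% in AB, but in 0.139% and 1.03% of the 18 nt reads and in 1.28% and 2.61% of the 21 nt reads.

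The changes of the miR-219 arms were common ones. Among 41 conserved miRNAs with 500 or more reads in both brain libraries, the commonest interior change took a median of 0.717% of the brain reads of the listed and the changed tag together, and it took 5% or more in 8. miR-219-5p ranked 7 at 9.42% and miR-219-3p ranked 8 at 5.88%. The highest was A4G of miR-381-3p at 27.0%, an adenosine known to be edited to inosine, which is read as G, in other mammals. The second change of miR-219-3p, at 5.39%, exceeded the second change of the other 7 in that group. A17C was also the commonest interior change of miR-129-3p, with 410 (HB) and 96 (AB) changed reads beside 34053 and 14360 listed ones. The same held for miR-22-3p (35 and 17 beside 1962 and 1419), miR-9-3p (18 and 18 beside 2070 and 2918) and miR-544-5p (6 and 6 beside 929 and 550). A higher A17C share in HB was thus not particular to miR-219-3p, and in miR-544-5p the share was lower there. What gave rise to the changed tags was not tested.

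**Figure D5:**
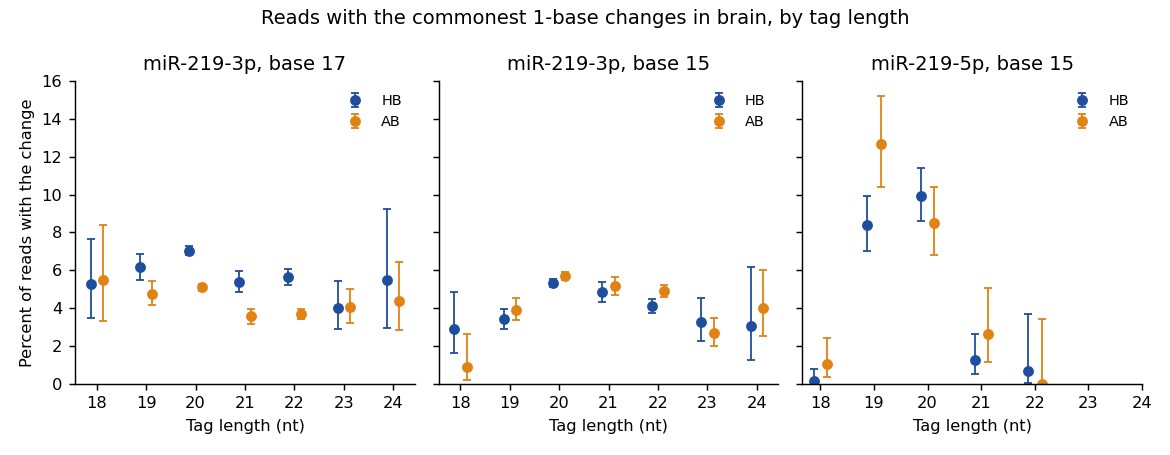
The percent of reads that carry the commonest interior changes, base 17 (A to C) and base 15 (A to G) of miR-219-3p and base 15 (C to T) of miR-219-5p, at each tag length (nt) with 100 or more reads, in HB and AB, with 95% exact intervals. The 3p changes lie between 0.904% and 7.02% at every length, and the 5p change is concentrated at 19 and 20 nt.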

How the data were processed

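The authors ligated adapters to gel-selected small RNA, sequenced it by Solexa synthesis, and filtered out adapters and poor reads. For each library they deposited distinct tags with their counts, without normalization. The depth was the sum of these counts. In each library, the distinct tags and the reads were slightly fewer than the clean ones that the paper gives. The members and the marker lists were chosen with earlier results of these data known. Reads of a miRNA were those of the tag equal to its listed sequence, and its length forms by tags that begin with its first 18 nt (5′ ends by bases 2 to 17, and 1-base changes within bases 1 to 17). Ratios were scaled by TMM over all listed miRNAs (edgeR 4.0.16 in R 4.3.3, tested on simulated data), with exact Clopper-Pearson intervals. Levels have exact Poisson intervals, and the difference of arm balance has a log-odds interval. PCR copies are not independent molecules, so intervals and floors cover counting error only. A floor of 3 reads replaced 0, and no ratio was given where both libraries had 3 reads or fewer. Named were both arms, their 5 most abundant tags, listed miRNAs with the same seed, the 5 nearest profiles, the marker lists and the hairpins with both arms listed; the changed tags, the base continuations and miR-381-3p were chosen after their values were seen. Alternatives were other scalings (DESeq2 1.42.0 size factors among them), count rules, minimum reads and thinning (Python 3.11.15, scipy 1.17.1). The duplex came from RNAduplex 2.7.2. miR-338, the other known oligodendrocyte miRNA, and the positions of the hairpin were not analysed here.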

Additional observations from a re-analysis of the deposited data

Results flagged for a closer look

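The log2 ratio of the hibernating to the active library of miR-219-5p had opposite signs in the 2 tissues, at 0.90 in brain and at most -0.66 in WAT, where HA had 0 reads and AA 6. The difference between the tissues was not tested. The counting interval of the WAT value reached 0.10, and with TMM over the conserved miRNAs the bound itself was 0.11. By clean reads the bound was -1.01 with an upper limit of -0.25, and the ratio was -0.95, -1.31 and -1.14 by the first 18 nt, by bases 2 to 17 and by tags of 2 or more reads, with upper limits of 0.41, 0.0055 and 0.44. An upper bound above 0 does not set the direction in WAT, and the ratios with reads in both libraries were below 0. Under most settings the value lay within counting error.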

How the results depend on the processing

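Of 195 recomputed values, 144 stayed within their counting interval or, for counts, within 1.5 times of the count, and 51 moved. No difference of 1 or more in size changed its direction. Part of this tally was fixed in advance. Levels per 1000000 reads of the listed miRNAs are in another unit and so count as moved wherever there were reads. The most abundant tag of each arm is the listed sequence, so that setting repeats the main values. Scaling shifted the median log2 ratio of HB to AB over all listed miRNAs by -0.29 with clean reads and by 0.13 with TMM over the conserved miRNAs. In brain, the log2 ratio of HB to AB of miR-219-3p was -0.59 by clean reads, -0.39 by the reads of the listed miRNAs and -0.17 by TMM over the conserved miRNAs. It was -0.64 with tags that begin with the first 18 nt, -0.55 with bases 2 to 17 and -0.71 with tags of 2 or more reads, each with its own TMM scaling. With the scaling of the listed sequences kept, an alternative chosen after the data were seen, these count rules gave -0.37, -0.36 and -0.37, so most of the move came with the scaling. The ratio of miR-219-5p was 0.61 by clean reads, 1.04 by TMM over the conserved miRNAs, which passes a size of 1, and 0.57, 0.64 and 0.51 with these 3 count rules and their own scaling, but 0.84, 0.82 and 0.84 with the scaling kept. Names that share their first bases count the same tags in these rules. The bound of the 5p ratio of HA to AA rose to 0.11 by TMM over the conserved miRNAs and fell to -1.01 by clean reads, with an upper limit of -0.25, and the ratio was -0.95, -1.31 and -1.14 with the 3 count rules. That of miR-219-3p turned from -0.25 to 0.59, 0.52 and 0.55 with these rules and to 0.53 by TMM over the conserved miRNAs, all within its counting interval. With the scaling kept, the rules gave 0.68, 0.72 and 0.65, and only the interval by bases 2 to 17, 0.03 to 1.42, lay above 0. The brain to WAT ratio of miR-219-3p in hibernating bats was 10.40, 10.19 and 10.59 with the 3 count rules and 10.40, 10.39 and 10.44 with the scaling kept, and the lower bound for miR-219-5p was 8.37 by the reads of the listed miRNAs and 8.60 after thinning to the shallowest depth. The 3p share was 93.4%, 93.3% and 93.5% in HB and 97.1%, 97.0% and 97.1% in AB with the 3 count rules, and 93.7% and 97.1% with 1 changed base allowed, whereas the difference of log2 (3p over 5p) ranged only from -1.21 to -1.17. Tags that are starts of the most abundant tag of 23 nt or more gave mean 3p lengths of 20.31 nt in HB and 20.47 nt in AB, and -0.16 nt between them. Per 1000000 reads of the listed miRNAs, the 3p arm had 15648, 20519, 7.89 and 7.52 reads in HB, AB, HA and AA, and the 5p arm 653, 372 and 2.51 in HB, AB and AA. By the first 18 nt, the 3p arm had 5267, 8324, 3.64 and 2.89 RPM and the 5p arm 369, 253, 0.606 and 1.40 RPM, so the order of HB and AB was the same. Also with the first 18 nt, chosen after the data were seen, 8 of 25 hairpins moved by 1 or more in place of 5 of 14, miR-219 ranked 7 in place of 4, and with a pseudocount of 0.1 RPM 2 of the 5 profiles nearest to miR-219-5p were shared. The cause of the other moves was not tested. The libraries carry no replicate numbers. An additive fit of tissue and state over the 4 libraries, which would leave 1 residual degree of freedom, was not run. With 42 and 33 reads of the 3p arm and 7 and 16 of the 5p arm in WAT, low counts limit what can be said of the arms within that tissue.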

Other observations

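Most of the few long 5p reads of WAT, nearly all from AA, differed in their last bases from those of brain. Tags of the 5p arm that reach 2 bases beyond the listed sequence were counted where they continued with TT or TC. Other continuations were left out. The longest common form of TT and of TC is shown with the further bases in capitals.
TT form: tgattgtccaaacgcaattcTTG
TC form: tgattgtccaaacgcaattcTCG
The TT forms had 192 (HB) and 178 (AB) reads in brain and 0 (HA) and 1 (AA) in WAT, and the TC forms 5, 9, 1 and 5 in the same order. Of the reads with TT or TC, TT thus took 96.4% in the brain libraries (exact interval 94.0 to 98.0%) and 1 of 7 in the WAT libraries (14.3%, 0.361 to 57.9%). No reference hairpin was used here to match the forms to the miR-219 genes, and the split was chosen after the tags were seen.

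Tags of the opposite strand were rare and did not share the tissue pattern of the arms. The commonest tag complementary to the 3p arm is printed in full.
Antisense to 3p: agatgtccagccacaattctcg
It was read 5 times each in HB, AB and AA and 2 times in HA, and all 5 tags complementary to the 3p arm together had 9 (HB), 6 (AB), 2 (HA) and 6 (AA) reads, or 0.740, 0.600, 0.173 and 0.525 RPM. In AA there were thus 6 antisense reads beside 18 reads of the listed 3p sequence, and in AB 6 beside 49302. The 4 tags complementary to the 5p arm were read 1 time each in HB, AB and AA and 3 times in HA, which is at the floor of counting. In other mammals the miRNAs of the opposite strand are named miR-219b.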
